A study of Mus musculus with 12 samples.

Results

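H19 and 9 further imprinted genes were followed in cultured mouse oligodendrocyte precursor cells (OPCs), which divide and mature into the oligodendrocytes that make myelin. The members were H19, Igf2, Igf2r, Cdkn1c, Dlk1, Meg3, Peg3, Plagl1, Grb10 and Mest, which are 10 of the 55536 genes quantified. They are a list of named genes. The list was drawn up with the rise of H19 in IFN-γ-treated cells already known, so H19 was selected on that measured change, and its values are given as a description with no test. The question put to the data was whether H19 rose alone or together with the other members. Of the 10 members, 9 had at least 10 reads in at least 4 libraries and entered the fit across 17919 genes, and Dlk1 did not. Calls are read for 8 of these 9, since those of H19 are set aside.

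Cells came from pooled brains of Sox10:Cre-RCE:loxP(EGFP) mouse pups at postnatal days 4 to 6, in which cells that express or once expressed Sox10 carry EGFP. They were isolated either by sorting on that reporter or with CD140a magnetic beads, and the labels do not say which method served which library. All cultures, Ctr included, were kept in medium with PDGFaa and bFGF, which holds OPCs in a proliferating state. Ctr-OPCs received no further agent, Dexa-treated OPCs received 1 µM of the glucocorticoid dexamethasone for 48 h, and IFN-γ-treated OPCs (IFNg) received 100 ng/ml of the cytokine for 48 h. Each group had 4 libraries of ribosomal RNA-depleted, strand-specific total RNA, 1 from each of 4 litters, and replicate numbers were treated as litters. The labels also carry the entry EAE under mouse model, although the culture protocol describes no induction of that disease in the pups. The table of Dexa replicate 3 lists 33.73% of the transcripts, so 11 libraries entered the fits over all genes, and this library was used where it lists every transcript of a gene (Dlk1, Meg3, Plagl1 and Grb10). The 11 whole libraries held 19209063 to 52074652 reads in genes.

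Imprinted genes are expressed mainly from the copy inherited from 1 parent, and many of them set the growth of the embryo and placenta. H19 is a long non-coding RNA transcribed from the maternal copy, next to Igf2, a growth factor transcribed from the paternal copy. The methylation of a control region between them, which binds the insulator protein CTCF when unmethylated, decides which of the pair can use shared enhancers. An imprinted gene network is the name given to a set of imprinted genes, among them those listed here, whose levels move together in several mouse tissues. Plagl1, a zinc finger transcription factor also called Zac1, and H19 itself have both been described as regulators of that set. The reads here were not divided by parental copy, so imprinting itself was not measured.

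The H19 transcript also holds the precursor of miR-675, a microRNA cut from the first exon of the RNA. In the annotation (GENCODE release M21, GRCm38) H19 lies on chromosome 7 at chr7:142575529-142578143 on the minus strand, and transcript H19-202, of 2286 bases and 5 exons, took 95.4% of all H19 reads. The miR-675 hairpin lies in exon 1 at chr7:142577064-142577147, at bases 997 to 1080 of H19-202. Its 2 mature arms in RefSeq (GRCm38.p6) are shown because any H19-202 molecule counted below carries both. Capitals mark the seed, bases 2 to 8, by which a microRNA pairs with its targets.
mmu-miR-675-5p: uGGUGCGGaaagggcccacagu
mmu-miR-675-3p: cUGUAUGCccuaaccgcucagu
The seeds of the arms differ from each other. Mir675, annotated as a gene of its own, had 0 reads in all 11 whole libraries. Reads from the hairpin's bases are shared with the longer H19 transcript, and libraries of long RNA do not measure the mature arms.

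The levels of the members in untreated OPCs were far apart. On the TPM scale, which corrects for transcript length and so allows genes to be compared, Mest was highest in Ctr at 114 ± 50.8 TPM (mean ± SD, n = 4). Peg3 followed at 16.2 ± 1.95, Grb10 at 9.97 ± 2.78, Igf2r at 5.71 ± 1.03, Cdkn1c at 4.27 ± 1.15 and Meg3 at 2.49 ± 1.52 TPM. H19 came next at 0.974 ± 0.935 TPM, then Plagl1 at 0.63 ± 0.3, Dlk1 at 0.0857 ± 0.0426 and Igf2 at 0.0714 ± 0.0616 TPM. Along this order the ranges of neighbouring genes were apart between Mest and Peg3, Peg3 and Grb10, Grb10 and Igf2r, and Plagl1 and Dlk1. The other neighbours overlapped. H19 in IFN-γ-treated OPCs reached 16.8 ± 11.5 TPM (n = 4), close to the Ctr mean of Peg3.

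H19 was higher after IFN-γ in each of the 4 litters. In CPM (read counts divided by library size, the latter scaled with TMM factors), Ctr replicates 1 to 4 had 0.733, 0.947, 6.99 and 3.91 CPM of H19, resting on 27, 51, 338 and 120 reads. The IFNg libraries of the same litters had 9.43, 32.6, 101 and 56.7 CPM, resting on 312, 1167, 2909 and 1479 reads. The lowest IFNg library thus lay above the highest Ctr library, and litter 1 was lowest and litter 3 highest in both groups. In bulk RNA, a change in how many cells express a gene and a change in RNA per cell cannot be told apart.

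**Figure D1:**
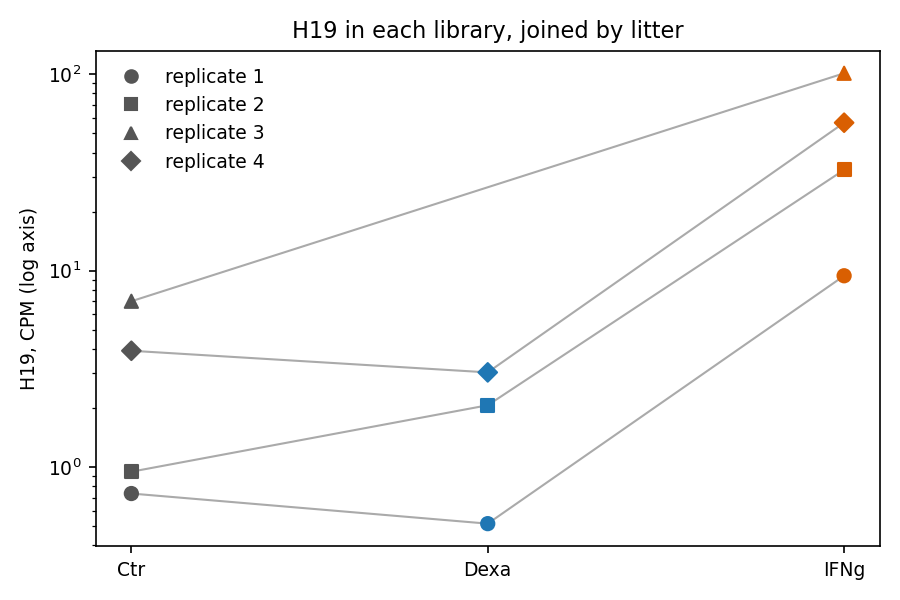
H19 in CPM (log axis) in each of the 11 whole libraries, with a symbol per replicate number and grey lines joining the libraries of 1 litter. Every line goes up to IFNg, where values run from 9.43 to 101 CPM, and the Dexa libraries lie between 0.515 and 3.04 CPM.

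Within litters the difference of IFNg minus Ctr in log2 CPM was 3.58, 5.03, 3.85 and 3.84, a mean of 4.07 ± 0.65 (SD, n = 4), which is 16.8-fold. The fit across all genes with litter as a block gave a log2 fold change of 4.10 ± 0.19 (SE). By this value H19 ranked at position 216 of the 17919 genes tested. Under dexamethasone H19 was at 0.515, 2.07 and 3.04 CPM in Dexa replicates 1, 2 and 4, and the litter differences were -0.47, 1.08 and -0.36. The fitted log2 fold change of Dexa versus Ctr was 0.06 ± 0.28 (SE), and its sign turned to -0.78 without the litter block.

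Of the other 8 members tested, 4 passed an adjusted p under 0.05 in IFNg versus Ctr, Cdkn1c, Grb10 and Mest downward and Meg3 upward. Over all genes tested 31.3% were called in this comparison, 16.0% higher and 15.3% lower, so the response to IFN-γ was broad and 4 of 8 has to be read against that share. Beside the log2 fold change of 4.10 for H19, the called changes of the other members lay between -1.08 and 0.41. Igf2, Igf2r, Peg3 and Plagl1 did not pass. In Dexa versus Ctr, 2 of the 8 were called, Peg3 upward and Mest downward, where 1.57% of all genes were called, 1.31% higher and 0.262% lower.

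**Figure D2:**
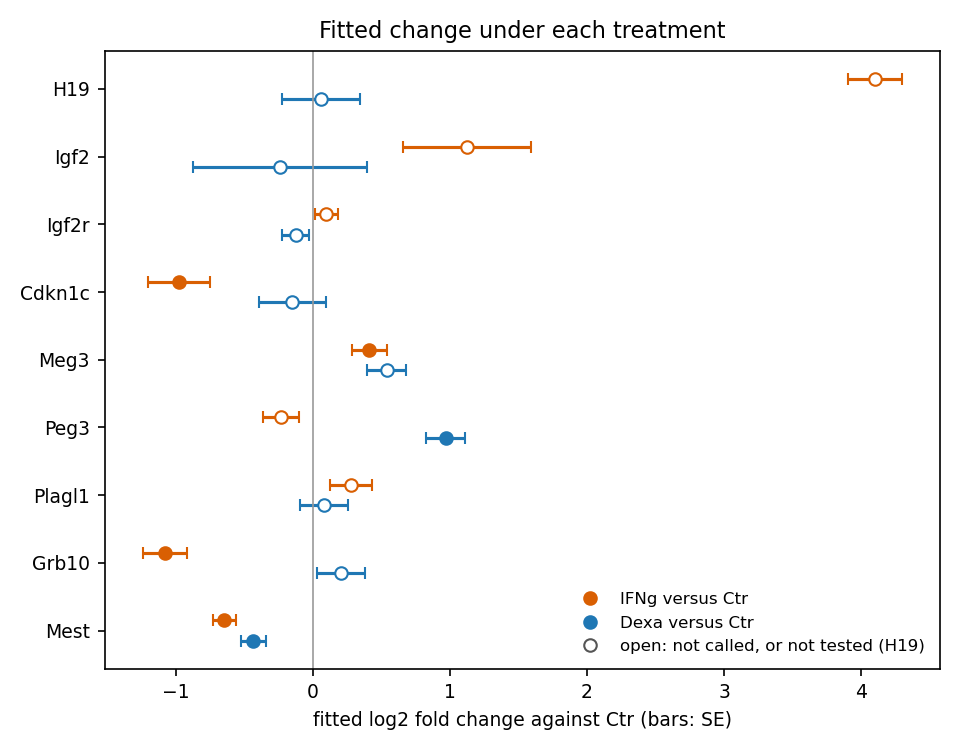
Fitted log2 fold change against Ctr for the 9 members in the fit (edgeR with litter as a block, bars are SE, n = 4 Ctr, 3 Dexa and 4 IFNg libraries), with filled points called at an adjusted p under 0.05. H19, drawn open because no call is read for it, stands at 4.10 under IFNg, and the called points are Cdkn1c, Meg3, Grb10 and Mest under IFNg and Peg3 and Mest under Dexa.

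Igf2, the partner gene of H19 at chr7:142650766-142666816, was close to the limit of detection. Ctr replicates 1 to 4 had 5, 27, 24 and 1 reads, Dexa replicates 1, 2 and 4 had 1, 18 and 1, and IFNg replicates 1 to 4 had 4, 22, 36 and 16. The Ctr and IFNg values overlapped. In CPM the litter differences of IFNg minus Ctr were -0.12, 0.27, 1.24 and 2.90 on the log2 scale, higher in 3 of 4 litters, and the fitted value was 1.13 ± 0.47 (SE, edgeR adjusted p = 0.0957). Over 21 alternative fits the adjusted p ran from 0.0344 to 0.537, the former without a count filter. Under Dexa the fitted log2 fold change was -0.24 ± 0.64 (SE, edgeR adjusted p = 0.933).

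Around H19, a further 20 annotated genes lay within 200 kb on chromosome 7, a distance chosen after the values were seen. Of these, 9 had 0 reads in all whole libraries and 4 could be tested, among them Igf2. Ctsd, which encodes the lysosomal protease cathepsin D and had 4171 to 12288 reads per library, had a log2 fold change of 0.04 ± 0.06 (SE, edgeR adjusted p = 0.644) in IFNg versus Ctr. Mrpl23, a mitochondrial ribosomal protein gene located beyond the 3′ end of H19, had -0.03 ± 0.12 (SE, edgeR adjusted p = 0.881). Lsp1, a leukocyte actin-binding protein gene with 5 to 20 reads, had 0.59 ± 0.44 (SE, edgeR adjusted p = 0.352). None of these 4 neighbours, Igf2 included, passed an adjusted p under 0.05 by edgeR or by DESeq2 with the block, and 1 of the 4 had an unadjusted p under 0.05 with either tool. With 31.3% of all genes called by edgeR in this comparison, 0 of 4 says little. Of the imprinted genes outside the members that were tested up to 1 Mb from H19, Cd81 (475 kb) and Tssc4 (491 kb) were called higher. Kcnq1ot1 (625 kb) and Nap1l4 (935 kb) were not called.

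Igf2r clears IGF2 from the cell surface and carries lysosomal enzymes, and in mouse it is transcribed from the maternal copy. The Ctr values overlapped those of both treated groups, at 64.8, 73.8, 92.4 and 76.5 CPM in Ctr, 62.5, 66.9 and 72.9 CPM in Dexa and 88.5, 79.1, 85.2 and 74.0 CPM in IFNg. The fitted log2 fold change was 0.10 ± 0.09 (SE, edgeR adjusted p = 0.429) in IFNg versus Ctr and -0.13 ± 0.10 (SE, edgeR adjusted p = 0.705) in Dexa versus Ctr. Airn, the non-coding RNA that overlaps Igf2r on the other strand and silences its paternal copy, had 16 to 79 reads and a log2 fold change of -0.67 ± 0.23 (SE, edgeR adjusted p = 0.0505) under IFNg. Slc22a3, an organic cation transporter gene 175 kb away, fell by 2.03 ± 0.43 on the log2 scale (SE, edgeR adjusted p = 0.00485) from low counts of 2 to 81 reads.

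Grb10, an adaptor protein that dampens signalling from the insulin and IGF1 receptors, fell with IFN-γ in every litter. Ctr replicates 1 to 4 had 48.8, 48.6, 84.9 and 55.5 CPM, and IFNg replicates 1 to 4 had 32.7, 17.6, 34.1 and 26.9 CPM. The groups did not overlap. The litter differences were -0.58, -1.46, -1.31 and -1.04 in log2 CPM, and the fitted log2 fold change was -1.08 ± 0.16 (SE, edgeR adjusted p = 0.000568). It was called in all 23 alternative fits, where the adjusted p ran from 2.06e-14 to 0.0185. Dexa replicates 1, 2 and 4 had 47.9, 60.5 and 73.6 CPM. With Dexa replicate 3 added, on 6319 genes listed whole in every table of which 1.88% were called, the log2 fold change of Grb10 in Dexa versus Ctr was 0.26 ± 0.15 (SE, edgeR adjusted p = 0.515), and 0 of the 3 members in that fit were called by edgeR (1 of the 3, Meg3, had an unadjusted p under 0.05).

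Grb10 reads came mostly from the start at position 12037401 of chromosome 11, whose transcript Grb10-201 took 87.3% of them, between 77.1% and 96.2% in single libraries. The start at 12027971, that of Grb10-203, took 5.9% over all libraries. The RefSeq promoter window that covers the main start (GRCm38.p6, 250 bases before to 50 after the RefSeq start, 80.0% G and C) is shown because most Grb10 reads were assigned to that start. Capitals mark the first 10 bases transcribed from the RefSeq start. That start lies slightly upstream of position 12037401, the start of Grb10-201 in the annotation used for the reads.
Grb10, chr11:12037371-12037670, minus strand: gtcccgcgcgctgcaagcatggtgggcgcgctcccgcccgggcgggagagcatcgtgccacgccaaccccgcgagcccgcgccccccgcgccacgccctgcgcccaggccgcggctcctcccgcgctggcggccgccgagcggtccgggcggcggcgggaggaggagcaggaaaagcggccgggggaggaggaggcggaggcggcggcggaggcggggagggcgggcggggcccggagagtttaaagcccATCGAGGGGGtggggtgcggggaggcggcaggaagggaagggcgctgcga
Cobl, an actin nucleator gene 198 kb from Grb10 that is also imprinted, fell by 1.25 ± 0.16 on the log2 scale under IFNg (SE, edgeR adjusted p = 0.000224). Ddc, the DOPA decarboxylase gene 32.4 kb on the other side, had 0.48 ± 0.27 (SE, edgeR adjusted p = 0.207).

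Cdkn1c, which encodes the cyclin-dependent kinase inhibitor p57 and is transcribed from the maternal copy, also fell with IFN-γ. Ctr replicates 1 to 4 had 8.01, 5.50, 7.41 and 11.2 CPM, from 295 to 358 reads, and IFNg replicates had 4.11, 4.14, 3.41 and 3.76 CPM, from 98 to 148 reads. The IFNg libraries were tightly grouped and all lay under the Ctr libraries. The fitted log2 fold change was -0.98 ± 0.23 (SE, edgeR adjusted p = 0.00791), lower in 4 of 4 litters. Without the litter block in edgeR the value was -1.05 and the call was lost (edgeR adjusted p = 0.0866). Dexa replicates 1, 2 and 4 had 6.31, 4.16 and 13.3 CPM, a spread wider than that of Ctr, and the log2 fold change against Ctr was -0.15 ± 0.24 (SE, edgeR adjusted p = 0.879).

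Cdkn1c lies in the chromosome 7 domain of the non-coding RNA Kcnq1ot1, which silences several genes of the paternal copy. Kcnq1ot1 had 1652 to 4402 reads and a log2 fold change of -0.11 ± 0.13 in IFNg versus Ctr (SE, edgeR adjusted p = 0.595). Cd81, a tetraspanin gene 390 kb from Cdkn1c, rose by 0.33 ± 0.06 (SE, edgeR adjusted p = 0.0016). Tssc4, a spliceosome assembly factor gene 387 kb away, rose by 0.33 ± 0.07 (SE, edgeR adjusted p = 0.00668), both on the log2 scale. Nap1l4, which is nearer at 52.5 kb and had 2806 to 10232 reads, had -0.12 ± 0.05 (SE, edgeR adjusted p = 0.0797). Phlda2, Slc22a18, Kcnq1 and Ascl2 had at most 8 reads in any whole library and were not tested.

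Mest, an α/β-hydrolase-fold gene transcribed from the paternal copy, had the highest level of the set and fell under both treatments. Ctr replicates 1 to 4 had 617, 454, 177 and 341 CPM, IFNg replicates 1 to 4 had 402, 266, 141 and 188 CPM, and Dexa replicates 1, 2 and 4 had 486, 297 and 242 CPM. The groups overlapped, because litters differed more than treatments, with replicate 1 highest and replicate 3 lowest in both Ctr and IFNg. Within litters IFNg minus Ctr was -0.62, -0.77, -0.33 and -0.86 in log2 CPM and Dexa minus Ctr was -0.35, -0.61 and -0.49. The fitted log2 fold change was -0.65 ± 0.08 under IFNg (SE, edgeR adjusted p = 0.000192) and -0.43 ± 0.09 under Dexa (SE, edgeR adjusted p = 0.048).

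Both calls of Mest rest on the pairing by litter. Without the block in edgeR the adjusted p was 0.406 under IFNg and 1.0 under Dexa. The Dexa call stood just inside the threshold and was also lost without Ctr replicate 1 (adjusted p = 0.132), Ctr replicate 2 (0.228), Ctr replicate 4 (0.225), Dexa replicate 1 (0.163), Dexa replicate 2 (0.354), Dexa replicate 4 (0.152) or IFNg replicate 2 (0.0875), and without the whole of litter 1 (0.161), 2 (0.538) or 4 (0.233), all by edgeR. The IFNg call held when any 1 library was left out. Copg2, a coatomer subunit gene that overlaps the end of Mest on the other strand, had log2 fold changes of -0.04 ± 0.05 under IFNg (SE, edgeR adjusted p = 0.561) and -0.02 ± 0.06 under Dexa (SE, edgeR adjusted p = 0.931).

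Mest reads came from 2 start sites about equally. Transcripts that start at positions 30733454 to 30733506 of chromosome 6, led by Mest-210, took 48.1% of them, and those that start at 30738050 to 30738055, led by Mest-211, took 50.6%. Both RefSeq promoter windows (GRCm38.p6, plus strand) are shown because the litters differed in which start was used, with capitals on the first 10 transcribed bases.
Mest upstream, chr6:30733256-30733555: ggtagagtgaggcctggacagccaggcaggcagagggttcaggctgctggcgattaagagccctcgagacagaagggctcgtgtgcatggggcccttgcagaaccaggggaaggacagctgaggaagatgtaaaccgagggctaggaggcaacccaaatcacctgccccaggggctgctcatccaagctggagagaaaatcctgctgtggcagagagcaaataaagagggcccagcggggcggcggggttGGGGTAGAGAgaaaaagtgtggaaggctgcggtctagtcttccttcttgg
Mest downstream, chr6:30737800-30738099: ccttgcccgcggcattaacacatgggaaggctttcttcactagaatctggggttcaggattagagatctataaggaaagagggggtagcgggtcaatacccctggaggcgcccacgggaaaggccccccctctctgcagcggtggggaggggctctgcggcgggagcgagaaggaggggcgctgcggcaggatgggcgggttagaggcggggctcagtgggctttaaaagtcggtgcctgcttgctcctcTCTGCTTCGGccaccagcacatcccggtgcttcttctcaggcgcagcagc
The share of the downstream start was 61.5%, 60.1%, 26.0% and 34.5% in Ctr replicates 1 to 4. Replicates 3 and 4 share a title prefix of unstated meaning, so litter and prefix cannot be told apart in this split. The downstream share was 53.7%, 39.7%, 31.6% and 19.1% in IFNg replicates 1 to 4, lower than Ctr in 3 of 4 litters and higher in litter 3. In Dexa replicates 1, 2 and 4 it was 67.0%, 50.9% and 39.0%, higher in 2 of 3 litters. The difference was not tested. Split by start, the litter differences of IFNg minus Ctr in log2 CPM were -0.82, -1.37, -0.05 and -1.71 for the downstream start and -0.33, -0.14, -0.44 and -0.55 for the upstream start. Reads were divided between these transcripts by Salmon's model, which adds an error of its own where isoforms share most exons.

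**Figure D3:**
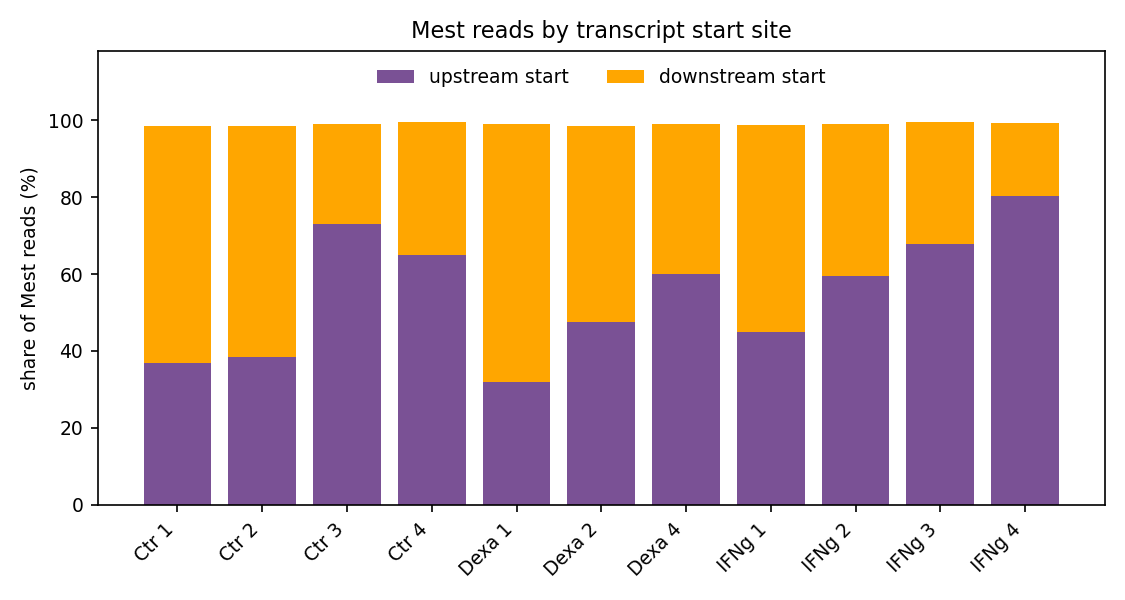
Share of Mest reads (%) from the upstream and the downstream start site in each of the 11 whole libraries. The downstream share runs from 19.1% in IFNg replicate 4 to 67.0% in Dexa replicate 1, and Ctr replicates 1 and 2 lie at 61.5% and 60.1% while Ctr replicates 3 and 4 lie at 26.0% and 34.5%.

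Peg3, a zinc finger protein transcribed from the paternal copy, was called higher with dexamethasone. In Ctr replicates 1 to 4 it was at 273, 201, 184 and 202 CPM, and Dexa replicates 1, 2 and 4 had 691, 347 and 324 CPM. Every Dexa library lay above every Ctr library. The litter differences were 1.34, 0.79 and 0.68 in log2 CPM, higher in 3 of 3 litters, and the fitted log2 fold change was 0.97 ± 0.14 (SE, edgeR adjusted p = 0.00789). The call was lost without the litter block in edgeR (adjusted p = 0.295), without Ctr replicate 1 (0.0537), Ctr replicate 2 (0.0502) or Dexa replicate 2 (0.0563), and without all libraries of litter 2 (0.192), while the value stayed between 0.71 and 1.14 in 22 alternative fits.

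Under IFN-γ Peg3 was at 202, 161, 167 and 193 CPM, lower than Ctr of the same litter in 4 of 4 litters, with a log2 fold change of -0.23 ± 0.13 (SE) that did not pass (edgeR adjusted p = 0.205). It passed in 3 of 22 alternative fits, 1 of them without Dexa replicate 1 (edgeR adjusted p = 0.0301). Nearly all Peg3 reads were given to transcripts from 1 start region at positions 6730419 to 6730431 of chromosome 7. Its RefSeq promoter window (GRCm38.p6) is shown as that of the 1 member called higher under Dexa by edgeR with the block over all genes, with capitals on the first 10 transcribed bases.
Peg3, chr7:6730370-6730669, minus strand: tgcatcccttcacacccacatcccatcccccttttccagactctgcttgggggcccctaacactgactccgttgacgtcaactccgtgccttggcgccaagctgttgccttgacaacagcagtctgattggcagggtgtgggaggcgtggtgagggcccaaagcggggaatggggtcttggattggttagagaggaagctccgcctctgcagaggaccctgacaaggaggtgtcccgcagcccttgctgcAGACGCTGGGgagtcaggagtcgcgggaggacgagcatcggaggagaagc
Usp29, a ubiquitin-specific protease gene that starts 0.147 kb from Peg3 on the opposite strand, rose by 0.57 ± 0.12 on the log2 scale in Dexa versus Ctr (SE, edgeR adjusted p = 0.0496). Zim1, an imprinted zinc finger gene 7.44 kb from the other end of Peg3, had 0.91 ± 0.31 (SE, edgeR adjusted p = 0.281).

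A pair of short motifs were searched on both strands of the promoter windows, and both searches were added after the values were seen. They were TTCNNNGAA, the spaced palindrome bound by STAT factors that act downstream of IFN-γ, and AGAACA, the hexamer bound by a single glucocorticoid receptor subunit. TTCNNNGAA occurred in 8.3% of all 32851 RefSeq promoter windows and in 0 of the 15 windows of the 8 members that have one. At that share, 0 of 15 says little. H19 and Cdkn1c have no window there, so their promoters were not searched. AGAACA occurred in 6233 of all windows and in 1 of the 15, an Igf2 window. Since no member window held TTCNNNGAA, the 2 motifs could not overlap in any of them. A window of 300 bases leaves out distant sites, so these counts describe the printed letters alone.

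Meg3, a maternally transcribed non-coding RNA of the chromosome 12 domain that also holds Dlk1, was the 1 member called higher under IFN-γ among the 8 tested. Meg3 was at 1.71, 5.70, 12.2 and 12.3 CPM in Ctr replicates 1 to 4, and IFNg replicates had 2.99, 6.86, 14.5 and 17.4 CPM. The groups overlapped nearly in full, and each IFNg library exceeded the Ctr library of its litter. The log2 fold change was 0.41 ± 0.13 (SE, edgeR adjusted p = 0.0306). The call was lost without the block (edgeR adjusted p = 0.818) and without Ctr replicate 1 (0.0675), Ctr replicate 3 (0.0515), Ctr replicate 4 (0.0922), IFNg replicate 2 (0.064), IFNg replicate 3 (0.0515) or IFNg replicate 4 (0.114), and without the whole of litter 2 (0.0864) or 4 (0.128).

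Under Dexa, Meg3 was higher than Ctr in each litter too. On the 6319 genes listed whole, where the fourth Dexa library counts, Meg3 had 4.37, 14.5, 30.7 and 30.5 CPM in Ctr and 9.60, 18.4, 38.9 and 40.4 CPM in Dexa. The log2 fold change there was 0.50 ± 0.12 (SE, edgeR adjusted p = 0.071), and it was 0.54 ± 0.14 in the 11-library fit (SE, edgeR adjusted p = 0.135). Neither passed. Meg3 was called higher in Dexa versus Ctr in 3 of 23 alternative fits, by DESeq2 with the litter block (adjusted p = 0.0304), without a count filter (edgeR adjusted p = 0.027) and in the 2 groups alone (edgeR adjusted p = 0.0333). The difference between the treatments, IFNg versus Dexa, was -0.13 ± 0.14 on the log2 scale (SE, edgeR adjusted p = 0.543). Ctr libraries are shared by both comparisons.

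Other RNAs of the Meg3 domain were measured as well. Rtl1, a retrotransposon-derived gene 17.5 kb from Meg3 on the opposite strand, had 10 to 80 reads. It rose by 0.92 ± 0.21 on the log2 scale under IFNg (SE, edgeR adjusted p = 0.00723). Mirg, the host RNA of a microRNA cluster with 8 to 92 reads, rose by 0.66 ± 0.18 (SE, edgeR adjusted p = 0.0167). Rian, the host RNA of a cluster of small nucleolar RNAs, rose by 0.31 ± 0.07 (SE, edgeR adjusted p = 0.00476). Begain, 473 kb from Meg3 on the other side, had -0.04 ± 0.255 (SE, edgeR adjusted p = 0.921). In Dexa versus Ctr, Rtl1 had -0.01 (edgeR adjusted p = 0.999), Mirg -0.14 (0.881), Rian 0.32 (0.0745) and Begain 0.56 (0.507). Rian and Begain are named here after their values were seen. Dlk1, the protein-coding gene of the domain, which encodes a transmembrane ligand that holds back differentiation, had 1 to 9 reads per library and was not tested with the count filter. In the fit without the filter its log2 fold change was -0.11 (edgeR adjusted p = 0.996) in IFNg versus Ctr and 0.43 (edgeR adjusted p = 0.964) in Dexa versus Ctr.

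Plagl1, the transcription factor placed upstream in the network, passed the test under neither treatment. Ctr replicates 1 to 4 had 5.73, 2.15, 2.17 and 4.40 CPM, and IFNg replicates 1 to 4 had 9.03, 2.13, 2.68 and 4.60 CPM. Litter differences were 0.65, -0.02, 0.30 and 0.06 in log2 CPM. The fitted log2 fold change was 0.28 ± 0.15 (SE, edgeR adjusted p = 0.204) under IFNg, and 0.20 ± 0.17 (SE, edgeR adjusted p = 0.677) under Dexa in the fit that includes Dexa replicate 3.

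**Figure D4:**
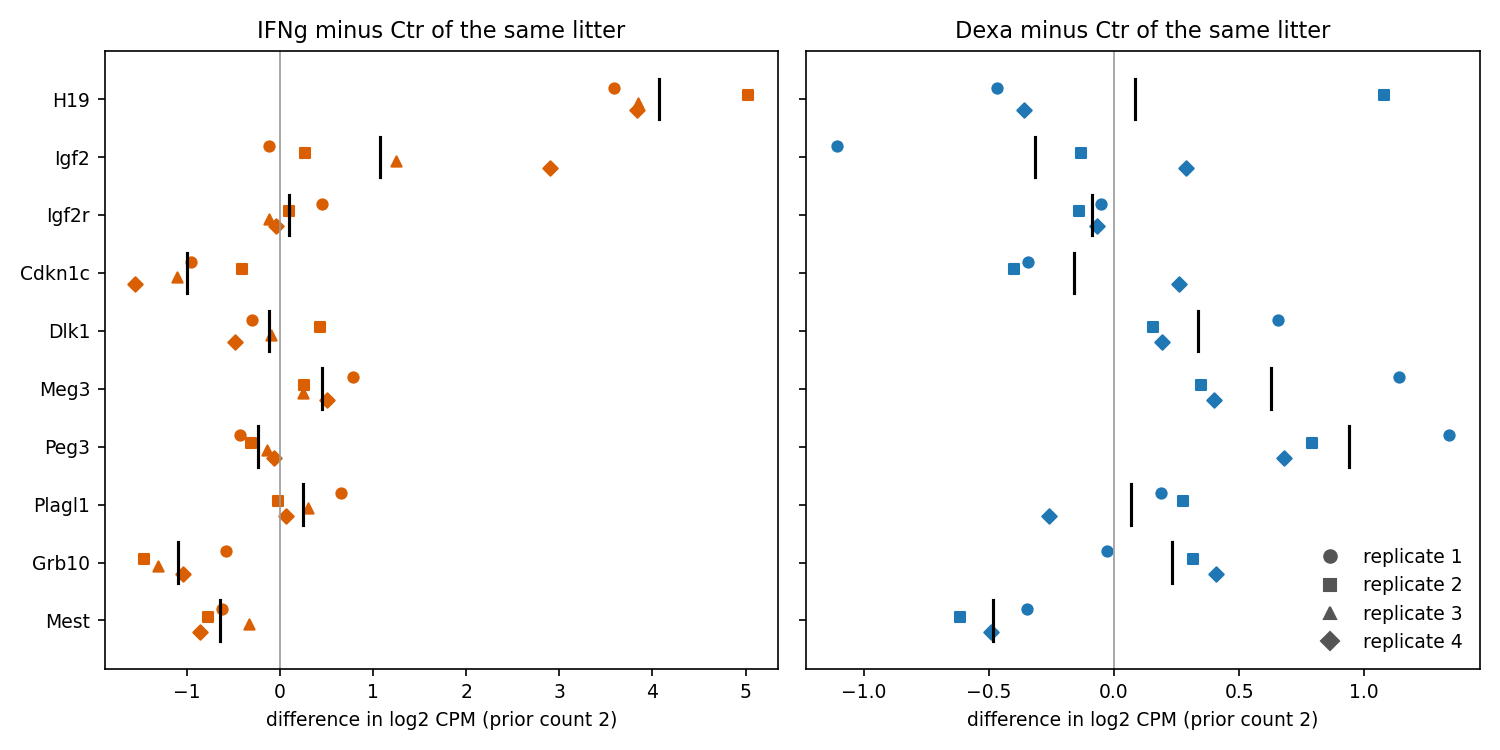
Difference from the Ctr library of the same litter in log2 CPM for each member, with IFNg on the left (4 litters) and Dexa on the right (3 litters), a symbol per replicate number and a black bar at the mean. For IFNg, H19 sits between 3.58 and 5.03, Cdkn1c, Grb10, Mest and Peg3 are under 0 in every litter and Meg3 is above 0 in every litter, and for Dexa, Peg3 sits between 0.68 and 1.34.

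The 2 treatments were also set against each other, IFNg versus Dexa. Of the 8 members tested other than H19, 3 were called, all lower in IFNg, where 33.7% of all genes were called, 17.2% higher and 16.6% lower. Peg3 was lower by a log2 fold change of -1.20 ± 0.14 (SE, edgeR adjusted p = 0.000142), Grb10 by -1.29 ± 0.18 (SE, edgeR adjusted p = 0.000357) and Cdkn1c by -0.83 ± 0.25 (SE, edgeR adjusted p = 0.0292). The Peg3 and Grb10 calls held in every alternative fit run, 22 for Peg3 and 23 for Grb10. The Cdkn1c call held in 12 of 22, and was lost without Dexa replicate 4 (value -0.48, edgeR adjusted p = 0.162), Dexa replicate 1 (0.0511), IFNg replicate 4 (0.0796), IFNg replicate 3 (0.0533) or Ctr replicate 3 (0.0522), and without the whole of litter 1 (0.0656), 3 (0.0534) or 4 (0.205). It was also lost without the litter block in edgeR (adjusted p = 0.114) and in the 2 groups alone (edgeR adjusted p = 0.12). H19 was 4.04 higher on the log2 scale in IFNg than in Dexa, given as a description.

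**Figure D5:**
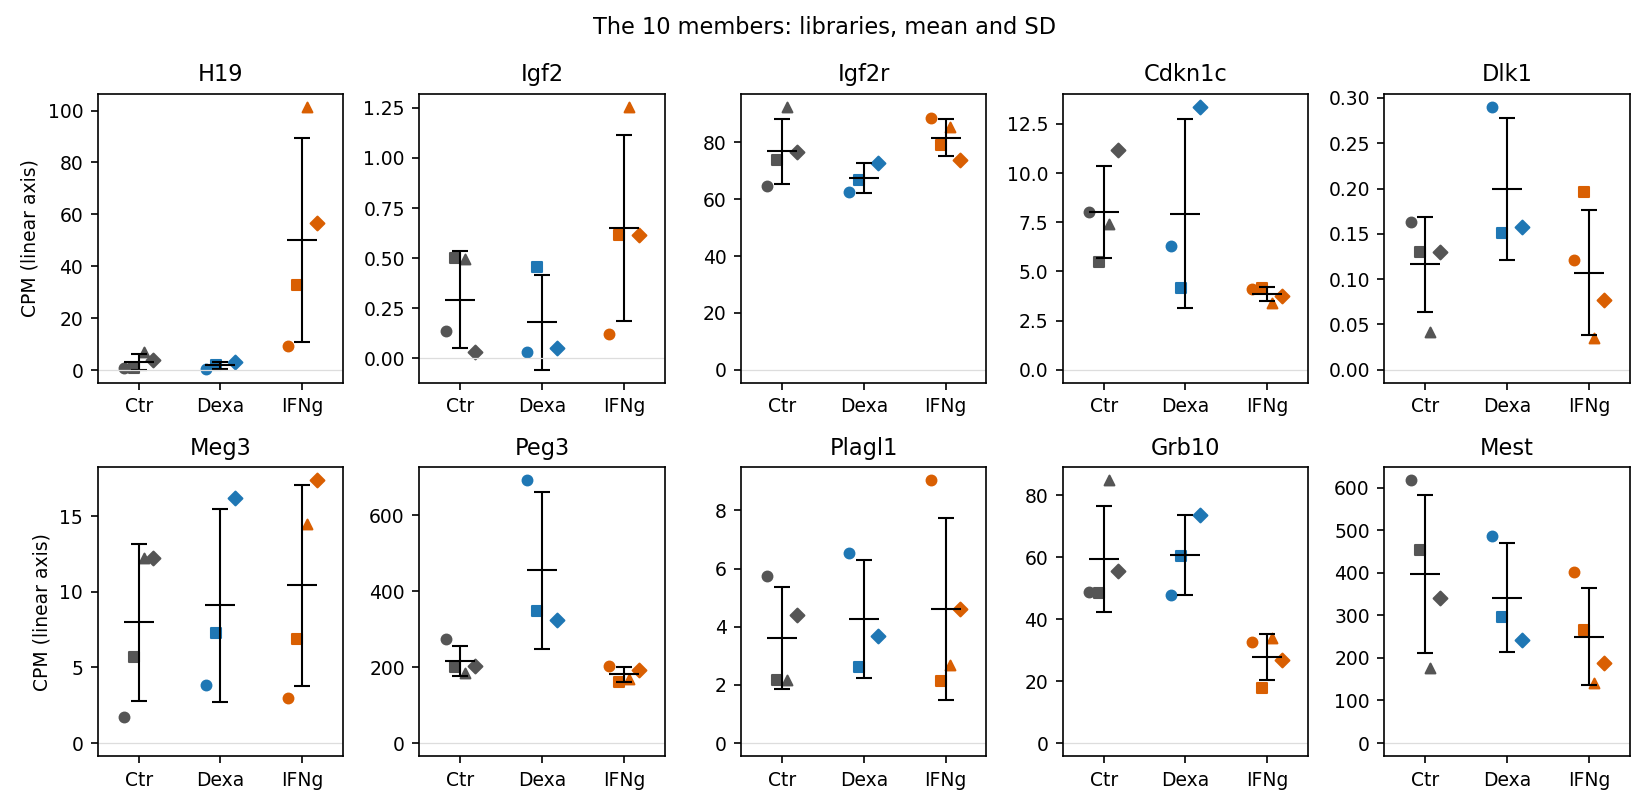
CPM (linear axis, a scale of its own per gene) of the 10 members in each of the 11 whole libraries, with a symbol per replicate number as in the other plots and the group mean ± SD in black. Grb10 has a mean of 59.4 CPM in Ctr and 27.8 CPM in IFNg, and Peg3 of 215 CPM in Ctr and 454 CPM in Dexa.

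Likeness to H19 was described by Pearson's r of log2 CPM (prior count 2) over the 11 whole libraries, which share the groups, litters and depth. H19 was selected on its rise under IFN-γ and that rise enters r, so the values are a description with no test. The 5 tested genes with the highest r were Tox4 (0.991), Plgrkt (0.985), Grb14 (0.983), Zfp455 (0.983) and Gm37090 (0.982). None of them is a member, which says little, since only 8 members other than H19 are among the 17919 genes tested. After the mean of each replicate number was subtracted, the r of these 5 genes ran from 0.975 to 0.995. Tox4 rose from 136 CPM in Ctr to 193 CPM in IFNg as group means, and Grb14, a relative of Grb10, from 4.50 to 15.1 CPM. Among the members r with H19 ran from -0.811 for Mest to 0.644 for Igf2r before that step. After it, r was lowest for Grb10 at -0.929 and Cdkn1c at -0.824 and highest for Igf2 at 0.716.

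A wider list of 60 imprinted genes, without the members, gives the setting. Of its 46 tested genes, 11 were called higher and 7 lower in IFNg versus Ctr, where 16.0% of all genes were called higher and 15.3% lower, and the median log2 fold change was 0.00 against -0.01 over all genes. Asb4, a substrate receptor of a ubiquitin ligase, had the largest rise, from a low level of 0.296 ± 0.217 CPM in Ctr to 1.42 ± 0.421 CPM in IFNg (SD, n = 4 each), with a log2 fold change of 2.37 ± 0.44 (SE, edgeR adjusted p = 0.00222). Peg10, a retrotransposon-derived gene, rose by 0.98 ± 0.16 (edgeR adjusted p = 0.00094) and Sfmbt2, a Polycomb-group protein gene, by 0.84 ± 0.10 (edgeR adjusted p = 0.000107), both log2 with SE. Inpp5f, a phosphatase gene, rose by 0.34 ± 0.07 (edgeR adjusted p = 0.00307). Dcn, a matrix proteoglycan gene, fell by 1.35 ± 0.38 (edgeR adjusted p = 0.0284) and Nap1l5, a nucleosome assembly gene, fell by 0.34 ± 0.06 (edgeR adjusted p = 0.00153), also log2 with SE. In Dexa versus Ctr 1 gene of the 46 was called, Usp29, against 1.57% of all genes, and the median was 0.05. In IFNg versus Dexa 9 were called higher and 9 lower, against 17.2% and 16.6% of all genes, with a median of -0.05. Lower in IFNg than in Dexa were Slc22a3 (log2 fold change -1.92), Zim1 (-1.57), Cobl (-1.06) and Peg13 (-0.39), and higher were Asb4 (1.58), Rtl1 (0.93), Peg10 (0.92), Mirg (0.79), Sfmbt2 (0.70) and Commd1 (0.42). Peg13 is a non-coding RNA, and Commd1 encodes a copper-handling protein.

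Genes of IGF signalling were looked at next. Of 17 tested genes of a list of 20, 3 were called higher and 5 lower in IFNg versus Ctr, against 16.0% and 15.3% of all genes, with a median log2 fold change of -0.07 beside -0.01 over all genes. Pappa, a protease that cuts IGF-binding proteins, rose by 2.21 ± 0.28 (edgeR adjusted p = 0.000185) from 0.148 to 0.687 CPM, and Igf2bp3, an RNA-binding protein of Igf2 mRNA, rose by 1.49 ± 0.15 (edgeR adjusted p = 3.65e-05) from 19.7 to 51.6 CPM, as log2 values with SE and group means. Pappa was low throughout, at 0.0815 to 0.204 CPM in Ctr libraries and 0.483 to 0.811 CPM in IFNg libraries. A gene at such levels can pass the count filter through the group where it is high. Insr, the insulin receptor gene, rose by 0.27 ± 0.06 (edgeR adjusted p = 0.00918). Among binding-protein genes on the same scale, Igfbp5 fell by 2.04 ± 0.25 (edgeR adjusted p = 0.000131), Igfbp4 fell by 1.70 ± 0.15 (edgeR adjusted p = 1.44e-05) and Igfbp7 fell by 1.29 ± 0.26 (edgeR adjusted p = 0.00341). Irs2, a docking protein of the insulin and IGF1 receptors, fell by 1.02 ± 0.22 (edgeR adjusted p = 0.00541), and Pik3r1, a PI3-kinase subunit gene, fell by 0.42 ± 0.05 (edgeR adjusted p = 0.000216).

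Pik3r1 was the 1 gene of this list called in Dexa versus Ctr, against 1.57% of all genes, and it rose by 0.62 ± 0.06 (SE, edgeR adjusted p = 0.000775), from 566 ± 96.3 CPM (SD, n = 4) to 821 ± 69.1 CPM (SD, n = 3). The list's median there was 0.09. In IFNg versus Dexa 3 genes were called higher and 8 lower, against 17.2% and 16.6% of all genes, with a median of -0.25, led by Igfbp5 at -2.67 ± 0.26 (SE, edgeR adjusted p = 3.61e-05). Also lower were Igfbp7 (-1.75), Igfbp4 (-1.21), Pik3r1 (-1.05), Irs2 (-0.75), the serine protease gene Htra1 (-0.73) and Igfbp2 (-0.43), and higher were Igf2bp3 (1.71), Pappa (1.26) and Igf2bp2 (0.34).

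Genes that keep or read imprints were also looked at. Of 17 tested genes of a list of 20, 5 were called higher and 1 lower in IFNg versus Ctr, with a median log2 fold change of -0.06. Over all genes 31.3% were called in either direction, 16.0% higher and 15.3% lower. The total of 6 is near the share for either direction, but its split leans to higher. No set test was run. Uhrf1, which guides DNA methylation to new strands, rose by 0.66 ± 0.13 (edgeR adjusted p = 0.00321), Smchd1, a chromatin protein of silenced loci, by 0.43 ± 0.07 (edgeR adjusted p = 0.00105) and Dnmt1, the maintenance DNA methyltransferase, by 0.41 ± 0.07 (edgeR adjusted p = 0.00134), as log2 values with SE. The Polycomb subunit genes Ezh2 and Eed rose by 0.23 ± 0.07 (edgeR adjusted p = 0.0233) and 0.21 ± 0.07 (edgeR adjusted p = 0.0446). Dnmt3b, a de novo DNA methyltransferase gene, fell by 0.58 ± 0.15 (edgeR adjusted p = 0.0119). In Dexa versus Ctr none of the 17 was called by edgeR (2 had an unadjusted p under 0.05) or by DESeq2 with the block (1 had), against 1.57% of all genes by edgeR, and the median was -0.09. In IFNg versus Dexa, where 17.2% of all genes were called higher and 16.6% lower, 6 of the 17 were called, all higher. They were Uhrf1 (log2 fold change 0.79), Smchd1 (0.54), Dnmt1 (0.52), the imprint-protecting zinc finger gene Zfp57 (0.48), Eed (0.37) and Ezh2 (0.36).

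Markers of OPCs and of other cell types were summed per library beside these results. The 10 OPC markers, Pdgfra, Sox10 and Olig2 among them, summed to 5790 to 13700 CPM in Ctr, 6510 to 15300 CPM in Dexa and 4080 to 9430 CPM in IFNg, and 7 of the 10 were called lower in IFNg versus Ctr, against 15.3% of all genes. The 8 fibroblast markers summed to 0.679 to 15.6 CPM in Ctr, 0.966 to 12.5 CPM in Dexa and 1.24 to 12.1 CPM in IFNg. In IFNg versus Ctr 1 of the 7 tested rose, Lum, and 2 fell, Col3a1 and Dcn, where 16.0% of all genes were called higher and 15.3% lower. The 6 mural cell markers summed to 3.74 to 7.96 CPM in Ctr, 7.68 to 11.5 CPM in Dexa and 12.6 to 19.5 CPM in IFNg, and Kcnj8 was at 0 in Dexa. Acta2 had the highest level of them in each group, and of the 4 tested in IFNg versus Ctr 1 was called higher, Acta2, and 1 lower, Vtn. The sums of the 7 endothelial markers were 4.10 to 6.16, 5.96 to 11.4 and 4.44 to 5.65 CPM in the same order, and those of the 8 microglia markers were 0.435 to 1.16, 0.708 to 1.26 (Cx3cr1 at 0) and 0.997 to 1.61 CPM. Astrocyte markers (6 genes) summed to 446 to 1380, 991 to 1770 and 950 to 1460 CPM, neuron markers (6 genes) to 14.7 to 18.4, 17.6 to 22.9 and 17.9 to 25.9 CPM, and choroid plexus markers (4 genes) to 2.56 to 10.9, 4.55 to 14.2 and 2.96 to 16.8 CPM. In IFNg versus Ctr 3 of 6 tested astrocyte markers were called higher and 2 lower, 1 of 4 neuron markers higher and 2 lower, 1 of 5 endothelial markers higher and 1 lower, the 1 tested choroid plexus marker higher, and neither of the 2 tested microglia markers. Gfap rose by 3.99 ± 0.36 on the log2 scale (SE, edgeR adjusted p = 1.86e-05), while the astrocyte markers Aqp4 and Gja1 fell. Ly6c1 rose by 7.06 ± 0.53 (SE, edgeR adjusted p = 4.53e-06), while the endothelial marker Kdr fell. The part of these marker levels in the changes of H19 and the other members was not tested.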

How the data were processed

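Total RNA-seq of 12 OPC cultures (4 Ctr, 4 Dexa, 4 IFNg) was used. Reads were trimmed and quantified by the authors with Salmon (0.8.2 in the submitters' processing notes; STAR and DESeq2 are also named), and they deposited an estimated count and a TPM value per transcript and library. Transcripts were matched to GENCODE M21 on GRCm38. Estimated counts were summed per gene and rounded, and the deposited TPM values were summed per gene. The deposited DESeq2 tables of the authors' own comparisons (fold changes, p-values) were not used.

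A gene was tested where 4 or more of 11 libraries had 10 or more counts, in edgeR (4.0.16, R 4.3.3), with TMM scaling, quasi-likelihood F-tests, replicate number as a block and Benjamini-Hochberg adjustment over 17919 genes. SE is the log2 fold change divided by the root of F. The study's methods name DESeq2 for these libraries with no stated formula, so DESeq2 (1.42.0) was an alternative. The scripts were tested on simulated counts. Same-numbered libraries deviated together (r from 0.414 to 0.745 in all 10 pairs, against -0.646 to 0.526 in 30 other pairs), and the labels give replicates as different litters, so numbers pair the libraries. Within a group no libraries agreed within sampling noise (chi-square per degree of freedom from 23.8 to 230.0). Replicates 3 and 4 share a title prefix whose meaning is not stated, and the values within litters are within prefixes too.

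Members and gene lists were chosen with earlier results of these data known. Named are the 10 members, the 5 genes most like H19, and up to 10 called genes per list and comparison by size of change. Neighbours of members, start-site groups and motifs were added after the values were seen. PCR copies were not told apart, so counting error is a lower limit. Alternatives were no block, DESeq2, RLE scaling, other count filters, the 2 groups alone, leaving out libraries or litters, and CPM for levels.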

Additional observations from a re-analysis of the deposited data

Results flagged for a closer look

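The effects of IFN-γ and of dexamethasone against Ctr differed for 3 of the 8 members tested by the test of IFNg versus Dexa. Over all genes 33.7% were called in that comparison, 17.2% higher and 16.6% lower, and all 3 were lower in IFNg. No set test was run, so the count of 3 is set beside these shares alone. The difference in log2 fold change was -1.20 for Peg3 (edgeR adjusted p = 0.000142), with Peg3 higher than Ctr in 3 of 3 Dexa litters and lower in 4 of 4 IFNg litters. The difference was -1.29 for Grb10 (edgeR adjusted p = 0.000357) and -0.83 for Cdkn1c (edgeR adjusted p = 0.0292). The Cdkn1c call was lost in 10 of 22 alternative fits, among them that without Dexa replicate 4 (-0.48, edgeR adjusted p = 0.162). In 23 sets of 4 libraries (member and group), no library stood apart from the other three by Dixon's criterion.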

How the results depend on the processing

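Of 600 values of single members under alternatives, 528 kept direction and side of the threshold, 40 lost the call, 14 gained it, 16 changed sign and 2 moved. None of the sign changes was in a called value. The log2 change of H19 in IFNg versus Ctr stayed between 3.81 and 4.24.

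Without the replicate block, calls over all genes in IFNg versus Ctr fell from 5606 to 1513 (edgeR) and 2302 (DESeq2), in Dexa versus Ctr from 282 to 22 and 98, and in IFNg versus Dexa from 6045 to 1571 and 2345. Members called other than H19 then numbered 1 and 2 (from 4) in IFNg versus Ctr and 0 and 1 (from 2) in Dexa versus Ctr. In Dexa versus Ctr, H19 turned to -0.78 and -0.75, and in IFNg versus Dexa, Meg3 turned to 0.20 and 0.20. In Dexa versus Ctr, 460 genes were called by DESeq2 with the replicate block, 642 with no count filter and 1569 in the 2 groups alone, and with no filter 6 members were called in IFNg versus Dexa.

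With single libraries or whole litters left out, calls ranged from 3140 to 5780 in IFNg versus Ctr, from 29 to 394 in Dexa versus Ctr and from 3078 to 5978 in IFNg versus Dexa, the lowest without litter 2 each time, and members called in Dexa versus Ctr from 0 to 2. In the same refits, log2 changes in Dexa versus Ctr ran from -0.39 to 0.32 for H19, -1.55 to 0.15 for Igf2, -0.53 to 0.09 for Cdkn1c and -0.08 to 0.22 for Plagl1. Igf2r in IFNg versus Ctr ran from -0.01 to 0.17 and Meg3 in IFNg versus Dexa from -0.26 to 0.01. On genes listed whole, Dexa versus Ctr called 119 genes with Dexa replicate 3 and 67 without. By CPM in place of TPM, 4 of 10 members kept their position by level in Ctr. The cause of these differences was not tested. At 1 to 36 reads, Igf2 and Dlk1 limit any statement on either.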
